A study of Mus musculus with 54 samples.

Results

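Macrophages polarized for 24 h with lipopolysaccharide (LPS) plus interferon-γ (IFNγ), called M1-like, were compared with unstimulated M0 macrophages of the same mice. The comparison used 12 of the 54 libraries of the series, chosen by their labels as the M0 and M1-like libraries of the polarization experiment with single-end reads of 50 nucleotides. There were 6 libraries per condition, 2 technical libraries from each of 3 mice, and summing the 2 libraries of a mouse and condition gave 3 M1-like and 3 M0 sums. C57BL/6 mice aged 8 to 20 weeks had received an intraperitoneal injection of medium with 3% thioglycolate, and the cells washed out of the peritoneum 4 days later that adhered to plastic were used. For M1-like cells, the medium held LPS at 100 ng/ml together with IFNγ at 50 ng/ml for 24 h, and M0 cells received neither. Every group therefore consisted of elicited, adherent exudate cells, not of the resident macrophages of an untreated peritoneum, and the cells were not sorted. The M2-like cells of the same mice (10 ng/ml IL-4 for 24 h) entered the model as a further condition and are quoted only beside single genes.

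LPS, a component of the outer membrane of Gram-negative bacteria, is recognised by Toll-like receptor 4 together with MD-2 and CD14, and signals through the adaptors MyD88 and TRIF to NF-κB, AP-1 and interferon regulatory factors. IFNγ binds the receptor chains IFNGR1 and IFNGR2, and the kinases JAK1 and JAK2 then activate a STAT dimer that binds GAS elements in promoters. Interferon-β, made after TRIF signalling, acts through the complex ISGF3, which includes STAT2 and IRF9, on another element, the ISRE. Macrophages exposed to both signals are known for producing nitric oxide, inflammatory cytokines and chemokines, and for presenting antigen.

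Between 45598215 and 59443987 reads were counted on genes per sum, and gene expression is given as CPM, the number of reads of a gene scaled to a fixed library size after TMM normalisation. Core macrophage genes were detected in every sum, among them Csf1r, the receptor of the growth factor CSF1, at 948, 918 and 889.6 CPM in the M0 sums of mice 1, 2 and 3 and at 957, 823 and 921 CPM in their M1-like sums. Of 8 marker lists of other cell types, 7 (T, B, NK and mast cells, neutrophils, eosinophils, and mesothelial cells with fibroblasts) had a summed level of at most 37.0 CPM in any sum. The dendritic cell list was higher (1657 to 1760.4 CPM in M0 and 851 to 878 CPM in M1-like sums), but most of it came from Sirpa, which macrophages also express, and Siglech was at 0 in all 6 sums. The T cell genes Cd3d, Cd3e and Cd3g had means of at most 0.0328 CPM in both conditions. Prg2 and Prg3 of eosinophil granules and Elane of neutrophils were at 0. Other members of these lists were detected. The whole T cell list averaged 1.95 CPM in M0 and 6.06 CPM in M1-like sums. The eosinophil list averaged 18.7 and 1.49 CPM, and the neutrophil list 32.4 and 12.8 CPM. In bulk RNA, fewer cells of a type and less RNA per cell cannot be told apart.

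M1-like macrophages differed from M0 macrophages in most of the transcriptome. Of 16110 genes tested with edgeR's quasi-likelihood test, 5703 (35.4%) had higher and 6048 (37.5%) lower expression after stimulation (threshold for the adjusted p 0.05), so that 72.9% of all genes were called. With a change of at least 2-fold (log2 fold change of 1 or more) as well, 2389 genes (14.8%) were higher and 2539 genes (15.8%) were lower. The counts depended on how libraries were scaled. The TMM factors were 1.09 to 1.11 in M0 and 0.809 to 0.837 in M1-like sums, and scaling by total counts instead moved the median of all log2 fold changes by -0.43, which gave 3226 higher and 9543 lower genes. Of the 5703 higher genes, 465 were called lower on that scale, but none of the 2389 genes with at least a 2-fold increase was. Of the 11751 called genes, 11723 (99.8%) had a ratio of the called direction in every mouse. Sums that did not overlap between the conditions were found for 11638 called genes, compared with 12765 (79.2%) of all tested genes. A lack of overlap, given below for single genes, was therefore common and is a description.

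**Figure D1:**
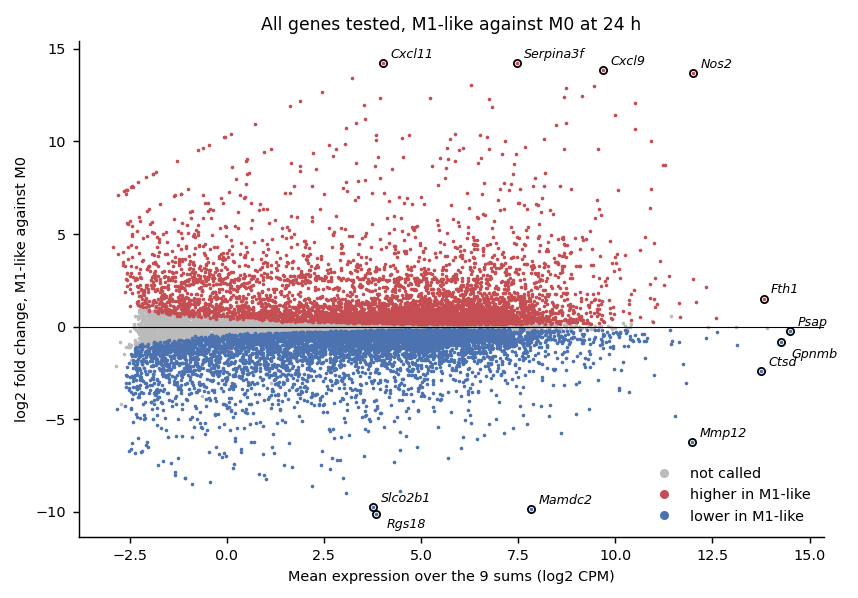
Log2 fold change of M1-like against M0 macrophages (vertical axis) against mean expression over the 9 sums in log2 CPM (horizontal axis) for the 16110 tested genes, with genes called higher in red, lower in blue and not called in grey. Fitted increases reached 14.23 on the log2 scale (Cxcl11, a value that depends on the prior count, since it had no read in M0 sums) and decreases -10.13 (Rgs18), and among genes with many reads Ctsb lay close to 0, at -0.08.

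The reads shifted toward induced genes. The 2389 genes with at least a 2-fold increase took up 10.7% to 10.9% of the counted reads in the M0 sums and 44.0% to 44.9% in the M1-like sums, whereas the 2539 genes with at least a 2-fold decrease fell from 16.8% to 16.9% of reads to 3.05% to 3.17%. These genes were chosen on the same reads, so the shares are a description. Nos2 alone held 1.01% ± 0.121 (SD, n = 3 mice) of all counted reads in M1-like macrophages. Genes of the mitochondrial genome went from 1.69% ± 0.0437 to 1.04% ± 0.0484 of reads, and 79 cytosolic ribosomal protein genes from 0.834% ± 0.0131 to 0.426% ± 0.0349.

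The 5 genes with the highest mean CPM, a measure that also grows with the length of a transcript, were Gpnmb, Psap, Ctsd, Ctsb and Lyz2 in M0 macrophages and Fth1, Psap, Ctsb, Gpnmb and Nos2 in M1-like macrophages. Fth1, the heavy chain of the iron store ferritin, was expressed at 10253, 9266 and 9904 CPM in the M0 sums and at 27866, 25691 and 30151 CPM in the M1-like sums (log2 fold change 1.51, SE 0.09, edgeR adjusted p = 1.23e-08). Ctsd, which encodes the lysosomal protease cathepsin D, was expressed at 23149, 21275 and 21366 CPM in M0 and at 4322, 4051 and 4038 CPM in M1-like sums (log2 fold change -2.41, SE 0.06, edgeR adjusted p = 9.82e-12). Both genes showed no overlap between the conditions, as did 79.2% of all tested genes. The cathepsin B gene Ctsb changed by -0.08 (SE 0.05, edgeR adjusted p = 0.218), which did not pass the test, and Psap and Gpnmb fell by 0.26 and 0.81 on the log2 scale.

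The 10 largest increases by fitted fold change among genes that averaged 2 or more in log2 CPM and did not overlap between conditions were those of Cxcl11, Serpina3f, Cxcl9, Nos2, BC023105, Cst7, Iigp1, Cxcl10, Ccl12 and Gbp4. Cxcl11, BC023105 and Ccl12 had no read in M0 sums, so their fitted values and ranks depend on the prior count. Together these 10 genes took up 1.55% to 1.87% of the reads in M1-like macrophages and at most 0.000236% in M0 macrophages. The 3 chemokine genes Cxcl9, Cxcl10 and Cxcl11, which lie close together on chromosome 5, encode the ligands of the receptor CXCR3 that attract T and NK cells. Cxcl9 (ENSMUSG00000029417, chr5:92321347-92328079 on GRCm38) had 0.2801, 0.131 and 0.0919 CPM in the M0 sums and 2682, 2538 and 2240.0 CPM in the M1-like sums (log2 fold change 13.86, SE 0.22, edgeR adjusted p = 2.65e-13). Cxcl10 (ENSMUSG00000034855, chr5:92346638-92348889) had 0.2001, 0.0559 and 0.239 CPM in M0 and 1208, 1216 and 1435 CPM in M1-like sums (log2 fold change 12.91, SE 0.21, edgeR adjusted p = 2.46e-13). Cxcl11 (ENSMUSG00000060183) had no read in any M0 sum and 40.3, 42.1 and 65.3 CPM in the M1-like sums, at least 2593-fold higher if 3 counts over all M0 sums are taken as the limit. The annotation lists Cxcl11 as a polymorphic pseudogene, and its C57BL/6 allele is known not to yield the full protein. In Cxcl9 and Cxcl10, the lowest M1-like value was more than 3 orders of magnitude above the highest M0 value, in genes chosen for a large change without overlap.

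Nos2 (ENSMUSG00000020826, chr11:78920787-78960254), the inducible nitric oxide synthase, had 1.0005, 0.671 and 1.14 CPM in the M0 sums and 14011, 11972 and 11072 CPM in the M1-like sums (log2 fold change 13.68, SE 0.25, edgeR adjusted p = 5.06e-13). Its M1-like values lay more than 3 orders of magnitude above every M0 value, a distance for which the gene was chosen. Serpina3f (ENSMUSG00000066363, chr12:104214544-104221129), a serine protease inhibitor gene, went from 0.02001, 0.0186 and 0.0368 CPM to 555, 537 and 499.8 CPM (log2 fold change 14.22, SE 0.14, edgeR adjusted p = 3.60e-14). It belongs to a cluster of similar genes on chromosome 12, so that reads may be split between copies, and Serpina3h and Serpina3i of the same cluster were also under 0.1 CPM in every M0 sum and above 30 CPM in every M1-like sum. Cst7, which encodes cystatin F, an inhibitor of cathepsin C, had 0.06003, 0.0186 and 0 CPM in M0 and 267, 241 and 196 CPM in M1-like sums (log2 fold change 13.04, SE 0.32, edgeR adjusted p = 4.79e-12). Gbp4 and Iigp1, GTPases of cell-autonomous defence, reached 1872, 1571 and 1682 CPM and 2345, 2115 and 1883 CPM, from at most 0.36 and 0.404 CPM in any M0 sum. The chemokine gene Ccl12 had no read in M0 and 16.1, 16.2 and 18.4 CPM in M1-like sums, at least 891-fold higher, and the processed pseudogene BC023105 behaved alike, at least 1508-fold higher.

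In all, 21 genes were under 0.1 CPM in every M0 sum and at 10 CPM or more in every M1-like sum, and 2 genes showed the reverse. Ifi44, an interferon-stimulated gene, had 3 reads over all M0 sums and 14418 over all M1-like sums, a ratio of 6113 with a 95% counting interval of 2091 to 29645. Ubd, which encodes the ubiquitin-like protein FAT10, had 2 and 4550 reads, a ratio of 2894 (801 to 23900.3). Ly6i, a member of the Ly6 surface protein family, had 0.06003, 0.0373 and 0.0919 CPM in M0 and 280.3, 297 and 399 CPM in M1-like sums (log2 fold change 12.27, SE 0.28, edgeR adjusted p = 2.94e-12). These intervals are exact Clopper-Pearson intervals of the split of the reads and cover counting error only.

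**Figure D2:**
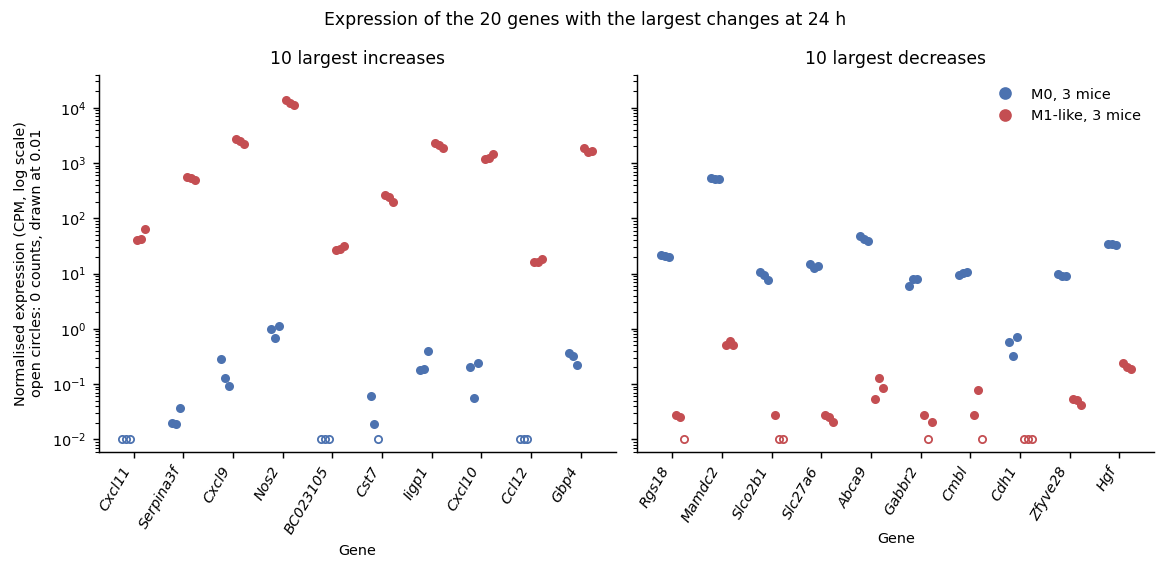
Normalised expression in CPM (vertical axis, log scale) of the 10 largest fitted increases (left) and the 10 largest fitted decreases (right), with 1 point per mouse for M0 (blue) and M1-like macrophages (red) and open circles for 0 counts, drawn at 0.01. The genes were chosen for no overlap between conditions, so the 3 points of one condition lie apart from the 3 of the other by selection. The M1-like values of Nos2 ranged from 11072 to 14011 CPM.

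Promoter sequence was available for 5 of these 10 genes and for 10227 of 15851 tested genes with a symbol, as the 250 bases before each annotated start in the RefSeq promoter table (GRCm38.p6). Short cores of the elements named above were searched on both strands, GAAANNGAA for the ISRE, TTCNNNGAA for GAS and GGGNNTTTC for κB sites, where N is any base and matches of different motifs may overlap. Each core is 1 strict form of its element, so a κB site or other element of another form is left unmarked and uncounted. The windows of Cxcl10, Cxcl9, Serpina3f and Cst7 are shown since these genes rose most and their windows held a match. All are written 5′ to 3′ on the strand of the gene, ending with the base before its start, and capitals mark the matched letters. Cxcl10 (chr5:92348890-92349139, minus strand) held 1 ISRE core that began 213 bases before the start, Cxcl9 (chr5:92328080-92328329, minus strand) held an ISRE core at 175 bases and a κB core on the reverse strand at 154 bases, Serpina3f (chr12:104214294-104214543, plus strand) held an ISRE core on the reverse strand at 127 bases that overlapped a GAS match at 121 bases, and Cst7 (chr2:150570165-150570414, plus strand) held a κB core on the reverse strand at 226 bases.
Cxcl10: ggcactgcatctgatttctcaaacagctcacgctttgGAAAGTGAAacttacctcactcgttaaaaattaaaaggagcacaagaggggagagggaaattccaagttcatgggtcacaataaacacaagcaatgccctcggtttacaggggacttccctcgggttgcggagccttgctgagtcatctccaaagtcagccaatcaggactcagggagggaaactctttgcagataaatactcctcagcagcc
Cxcl9: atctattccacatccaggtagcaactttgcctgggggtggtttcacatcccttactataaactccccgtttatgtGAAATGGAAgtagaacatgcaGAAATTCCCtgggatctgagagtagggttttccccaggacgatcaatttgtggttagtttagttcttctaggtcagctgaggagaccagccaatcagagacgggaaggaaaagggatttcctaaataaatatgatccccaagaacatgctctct
Serpina3f: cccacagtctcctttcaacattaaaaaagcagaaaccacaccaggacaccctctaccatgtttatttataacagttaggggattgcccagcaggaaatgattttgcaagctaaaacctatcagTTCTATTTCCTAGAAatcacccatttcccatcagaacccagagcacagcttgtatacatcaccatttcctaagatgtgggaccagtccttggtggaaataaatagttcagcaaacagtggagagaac
Cst7: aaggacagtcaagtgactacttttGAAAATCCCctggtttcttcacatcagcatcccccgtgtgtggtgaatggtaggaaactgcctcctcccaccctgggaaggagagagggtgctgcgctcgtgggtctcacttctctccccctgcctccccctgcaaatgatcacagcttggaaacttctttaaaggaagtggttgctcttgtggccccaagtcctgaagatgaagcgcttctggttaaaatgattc

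The window of Ccl12 held none of the 3 motifs. Of the 10227 genes with a window, 7.75% had an ISRE core, 7.25% a GAS match and 4.39% a κB core, and over all 32851 windows of the table the shares were 7.13%, 7.02% and 3.72%. Among the 1441 genes that rose by at least 2-fold the shares were 13.3%, 9.16% and 5.69%, and among the 1761 that fell by at least 2-fold they were 6.53%, 6.98% and 4.94%. An ISRE core was present for 12 of 25 interferon-stimulated antiviral effectors with a window, for each of 4 guanylate-binding protein genes with a window and for none of 13 proinflammatory cytokine genes, of which 3 had a κB core. Of 17 NF-κB subunits and regulators with a window, 5 had a κB core. A match of 9 letters is a description of the window and not a binding site. A window without a match may hold other forms of these elements, which were not searched.

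The 10 largest decreases by fitted fold change, chosen in the same way, were those of Rgs18, Mamdc2, Slco2b1, Slc27a6, Abca9, Gabbr2, Cmbl, Cdh1, Zfyve28 and Hgf. Mamdc2 (ENSMUSG00000033207, chr19:23302609-23448442 on GRCm38), which encodes a secreted proteoglycan, had 527, 525 and 505 CPM in the M0 sums and 0.513, 0.613 and 0.5201 CPM in the M1-like sums (log2 fold change -9.88, SE 0.11, edgeR adjusted p = 7.69e-14). Rgs18, a regulator of G protein signalling, had 21.7, 20.8 and 20.2 CPM in M0 sums and 2 reads over all M1-like sums, a ratio of 1296 with a 95% counting interval of 359 to 10710.0. Hgf, the hepatocyte growth factor, had 33.6, 33.6 and 33.2 CPM in M0 and 0.243, 0.204 and 0.187 CPM in M1-like sums (log2 fold change -7.302, SE 0.11, edgeR adjusted p = 1.64e-13), and the lipid transporter Abca9 had 47.5, 42.02 and 38.7 CPM and 0.05404, 0.128 and 0.0832 CPM (log2 fold change -8.87, SE 0.18, edgeR adjusted p = 1.33e-12). The M0 values of these genes differed little between mice. Their distance from the M1-like values follows from how the genes were chosen. Slco2b1, a transporter of organic anions, had 1455 reads in M0 and 1 read in M1-like sums, a ratio of 1144 (205 to 45215). Cdh1, the cell adhesion molecule E-cadherin, was low in M0 macrophages (0.5803, 0.317 and 0.698 CPM) and had no read in M1-like macrophages, at least 22.03-fold lower. It reached the minimum of mean expression through the M2-like sums (18.1 CPM), and its place among the 10 depends on the prior count of the fit.

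In M2-like macrophages of the same mice, quoted here as levels without a test, 2 of these genes had higher values than in M0. The mean of Slco2b1 over 3 M2-like sums was 31.2 ± 1.89 CPM (SD), compared with 9.25 ± 1.49 CPM in M0, and Cdh1 had 18.1 ± 1.66 CPM. Mamdc2 had 163 ± 14.1 CPM in M2-like cells, between its M0 and M1-like values. Nos2, Cxcl9 and Gbp4 stayed at 1.04, 0.2697 and 0.442 CPM in M2-like cells.

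**Figure D3:**
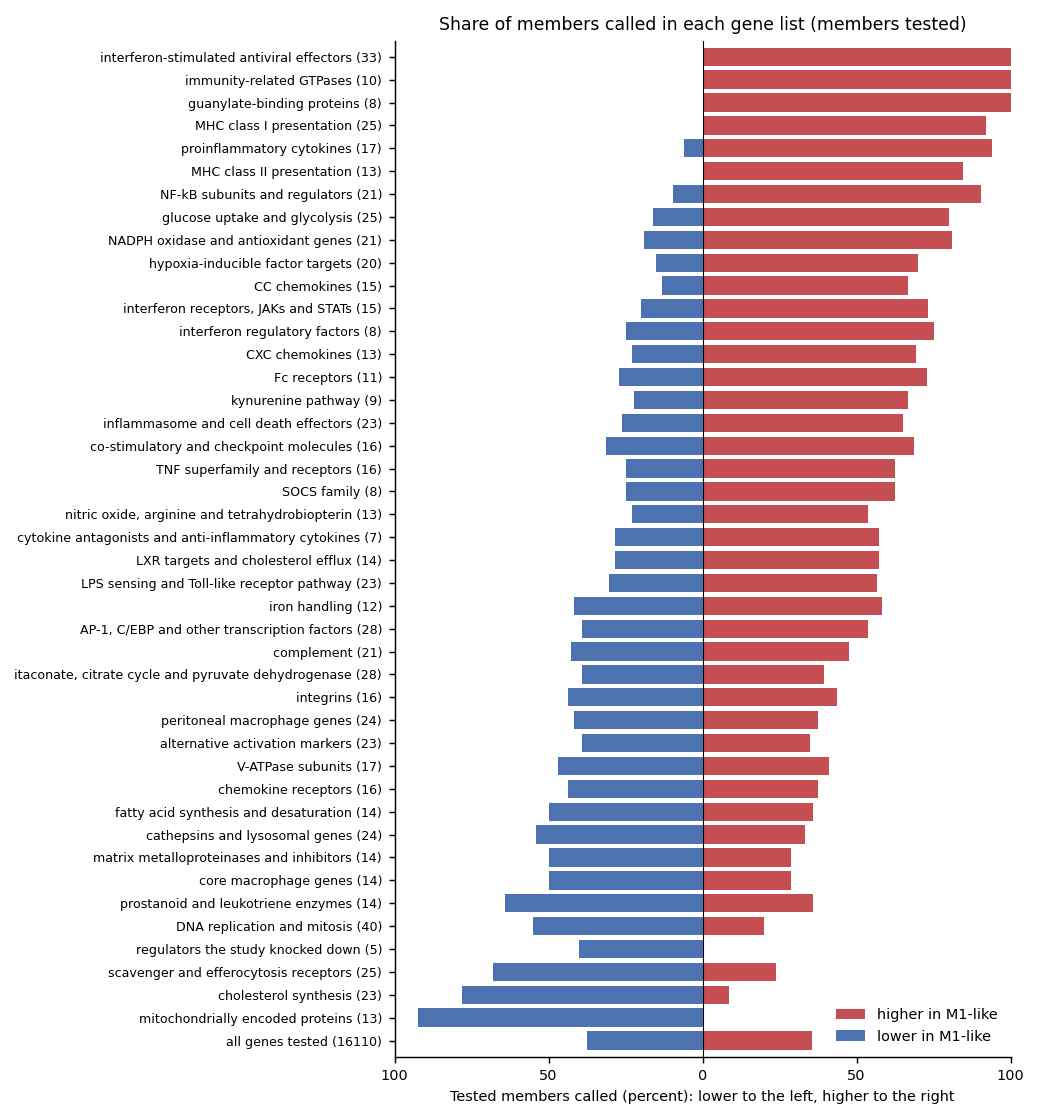
Percent of tested members of each gene list called higher (red, to the right) or lower (blue, to the left) in M1-like macrophages, with the number of members tested in parentheses and all 16110 tested genes in the lowest bar. Antiviral effectors, immunity-related GTPases and guanylate-binding proteins were higher for every member tested, whereas mitochondrially encoded proteins and cholesterol synthesis were mostly lower.

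Of 23 tested genes of LPS sensing and the Toll-like receptor pathway, 13 were higher and 7 lower, with a median log2 fold change of 0.65, compared with 35.4% higher, 37.5% lower and a median of -0.04 over all tested genes. Tlr4, the LPS receptor itself, had 61.6, 65.9 and 64.5 CPM in the M0 sums and 28.6, 30.2 and 34.99 CPM in the M1-like sums (log2 fold change -1.03, SE 0.11, edgeR adjusted p = 3.20e-06). Its partner Ly96 (MD-2) had 0.08 ± 0.11 (log2 fold change ± SE), a difference that did not pass the test, as did Lbp (0.04 ± 0.27) and Tlr7 (0.17 ± 0.09), while the co-receptor Cd14 had 60.9, 53.97 and 52.9 CPM in M0 and 189, 111 and 88.6 CPM in M1-like sums (log2 fold change 1.21, SE 0.21, edgeR adjusted p = 2.29e-04). Among the adaptors, Myd88 (2.38), Ticam2 (1.32), Ticam1 (0.97) and Tirap (0.63) rose, and of the IRAK kinases the inhibitory member Irak3 (2.39) and Irak2 (1.11) rose, whereas Irak1 (-0.79) and Irak4 (-0.46) fell. Of the other receptors, Tlr9 (4.43), Tlr12 (4.35), Tlr2 (2.12), Tlr3 (1.39), Tlr6 (1.14) and Tlr1 (0.65) were higher. Tlr8 and Tlr13, which sense RNA in endosomes, showed the largest decreases among the expressed receptors, Tlr8 from 145, 149 and 142 CPM to 4.81, 4.21 and 4.87 CPM (log2 fold change -4.97, SE 0.10, edgeR adjusted p = 1.64e-12) and Tlr13 from 579, 566 and 575 CPM to 57.8, 55.7 and 79.5 CPM (log2 fold change -3.16, SE 0.14, edgeR adjusted p = 7.77e-10). Tlr11 (-1.66) and Tlr5 (-4.48) were under 0.3 CPM on average in both conditions and also fell.

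Of 15 interferon receptors, JAKs and STATs, 11 were higher and 3 lower (median 1.14), beside 35.4% higher and 37.5% lower over all tested genes. Ifngr1, the ligand-binding chain of the IFNγ receptor, was lower in every M1-like sum, with 114, 111 and 112 CPM in M0 and 42.02, 41.9 and 42.3 CPM in M1-like sums (log2 fold change -1.42, SE 0.05, edgeR adjusted p = 8.22e-11). Its partner Ifngr2 changed by 0.16 ± 0.06 (edgeR adjusted p = 0.0183, up to 0.0821 when 1 sum was left out), and turned to -0.26 with scaling by total counts. The receptor chains of type I interferon, Ifnar2 (1.25) and Ifnar1 (0.55), rose. Of the kinases, Jak2 rose most, from 58.8, 58.02 and 62.3 CPM to 546, 557 and 586 CPM (log2 fold change 3.24, SE 0.09, edgeR adjusted p = 1.77e-11), followed by Jak3 (2.25), Jak1 (1.14) and Tyk2 (0.50). The transcription factor Stat2 showed the largest increase of the list, from 40.8, 42.9 and 44.1 CPM to 713, 668 and 757 CPM (log2 fold change 4.06, SE 0.07, edgeR adjusted p = 4.73e-13). Stat3 (2.63) and Stat4 (1.61) rose too, whereas Stat5a (-0.38) and Stat5b (-0.20, edgeR adjusted p up to 0.161 when 1 sum was left out) fell and Stat6, which signals for IL-4, had 0.16 ± 0.07 (edgeR adjusted p = 0.0523) and, with total counts, -0.27.

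Of 8 tested interferon regulatory factors, 6 were higher and 2 lower, beside 35.4% higher and 37.5% lower over all tested genes. Irf7, which drives interferon genes, had 16.6, 19.1 and 21.1 CPM in M0 and 2017, 2052 and 2496 CPM in M1-like sums (log2 fold change 6.85, SE 0.15, edgeR adjusted p = 2.55e-12), and Irf1, an early target of IFNγ signalling, had 39.2, 34.4 and 33.3 CPM and 2044, 2000.5 and 2107 CPM (log2 fold change 5.85, SE 0.09, edgeR adjusted p = 1.95e-13). M1-like sums were higher than all M0 sums for both (79.2% of all tested genes had no overlap in either direction). Irf8 (2.64), Irf9 (1.48), Irf5 (1.21) and Irf2 (0.86) rose as well. Irf4, a factor of alternative activation, fell from 5.05 ± 0.507 to 2.48 ± 0.164 CPM (-1.03), and Irf3 fell slightly (-0.20 ± 0.07, edgeR adjusted p = 0.0316, up to 0.117 when 1 sum was left out), a call that was also lost with DESeq2, with RLE size factors and without a filter.

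Feedback inhibitors were among the strongly induced signalling genes. In the SOCS family, 5 of 8 genes were higher and 2 lower, beside 35.4% higher and 37.5% lower over all tested genes. Socs1, which blocks JAK kinases downstream of interferon receptors, had 0.5603, 0.653 and 0.515 CPM in M0 and 234, 251 and 294 CPM in M1-like sums (log2 fold change 8.81, SE 0.20, edgeR adjusted p = 2.71e-12). Socs3, an inhibitor of IL-6 signalling, had 5.84, 4.998 and 4.15 CPM and 404, 404 and 437 CPM (log2 fold change 6.38, SE 0.12, edgeR adjusted p = 5.49e-13), and Cish, induced by cytokines that act on STAT5, had 0.1601, 0.131 and 0.1103 CPM and 20.1, 17.1 and 15.8 CPM (log2 fold change 7.02, SE 0.17, edgeR adjusted p = 3.58e-12). For these 3 genes the lowest M1-like value was more than 20 times the highest M0 value. Socs7 (0.67) and Socs4 (0.29, or -0.13 with total counts) rose slightly, Socs5 (-0.96) and Socs6 (-1.55) fell, and Socs2 had 0.65 ± 0.32, with an edgeR adjusted p of 0.0827 and of 0.0452 with the mouse as a replicate block.

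Nearly all genes of the NF-κB list rose, 19 of 21, 16 of them by at least 2-fold, and 2 fell (median 2.23). The inhibitors and negative regulators rose strongly, Nfkbie (4.26 ± 0.08), Nfkbia (3.43 ± 0.08), Tnfaip3 (2.84 ± 0.06), Nfkbib (2.46 ± 0.12), Tnip3 (2.31 ± 0.11) and Tnip1 (2.05 ± 0.07). Nfkbia, which encodes the inhibitor IκBα, had 35.2, 32.7 and 33.8 CPM in M0 and 355, 347 and 398 CPM in M1-like sums (log2 fold change 3.43, SE 0.08, edgeR adjusted p = 4.66e-12). The subunits ranked Nfkb2 (3.17), Relb (2.23), Rela (1.77), Nfkb1 (1.604) and Rel (0.51), and Bcl3 (2.86) and Nfkbiz (2.79), nuclear IκB proteins, rose as well. The adaptors Traf1 (5.36), Traf2 (2.43) and Traf6 (1.41) and the kinase genes Ikbkg (1.22), Ikbke (0.95) and Chuk (0.41, or -0.02 with total counts) were higher. Ikbkb (-0.22) and Nfkbid (-0.46) were the 2 lower genes.

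**Figure D4:**
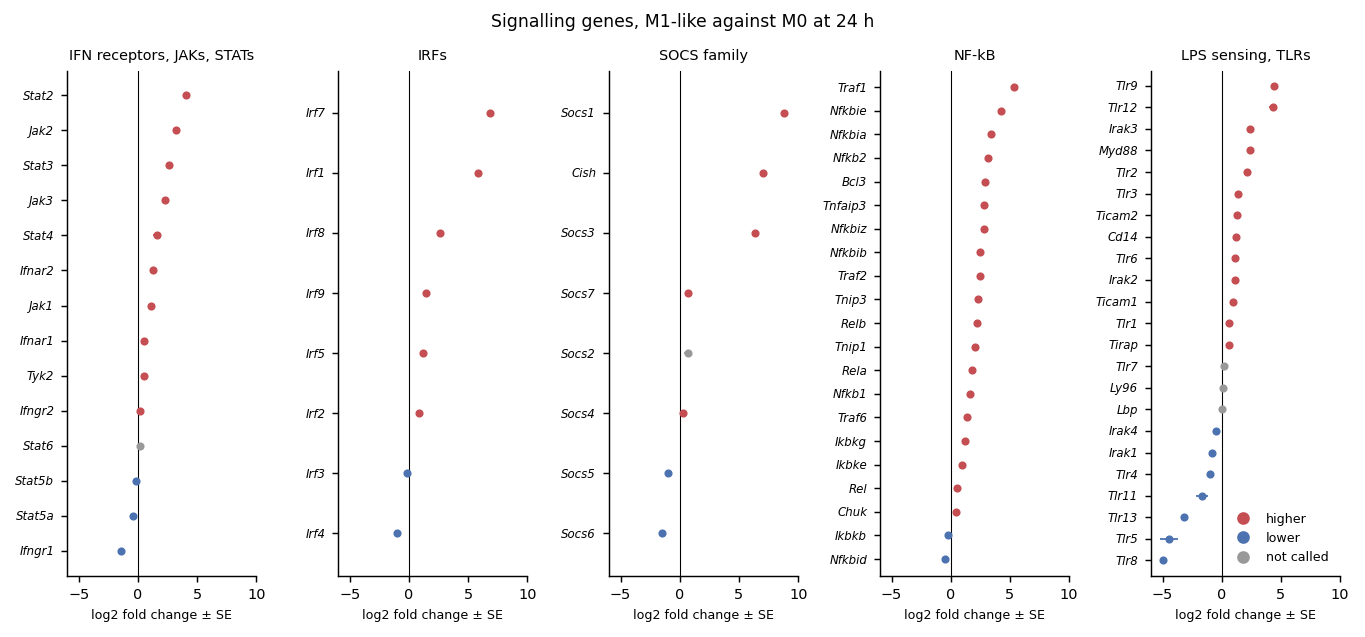
Log2 fold change of M1-like against M0 macrophages with its standard error (horizontal axis) for tested genes of 5 signalling lists, coloured red where called higher, blue where called lower and grey where not called. Socs1, Cish, Irf7 and Socs3 lay farthest to the right, and Tlr8, Tlr5 and Tlr13 farthest to the left.

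Transcription factors of other families were split, 15 higher and 11 lower of 28, beside 35.4% higher and 37.5% lower over all genes. Batf2, a partner of IRF1, rose most, from 2.88, 2.24 and 2.68 CPM to 216, 216 and 232 CPM (log2 fold change 6.41, SE 0.10, edgeR adjusted p = 2.01e-13), followed by Fosl1 (3.89), Nr4a3 (3.298) and Hif1a (3.02). Epas1, which encodes HIF-2α, fell most, from 261, 245 and 251 CPM to 5.24, 5.67 and 5.97 CPM (log2 fold change -5.48, SE 0.08, edgeR adjusted p = 1.36e-13), followed by Cebpa (-2.63), Egr1 (-1.61) and Nr4a1 (-1.53), while Cebpb rose (2.26). Egr3 (0.73 ± 0.41) and Batf3 (0.40 ± 0.19) did not pass the test. Of the 5 regulators that were targets of siRNA in another experiment of the series, Pparg and Myc were lower and 3 were not called. Pparg, a nuclear receptor of lipid metabolism, had 67.1, 68.2 and 68.2 CPM in M0 and 0.757, 0.843 and 0.562 CPM in M1-like sums (log2 fold change -6.57, SE 0.10, edgeR adjusted p = 2.18e-13), and Myc had 9.52, 8.93 and 9.03 CPM and 0.513, 0.664 and 0.728 CPM (log2 fold change -3.83, SE 0.12, edgeR adjusted p = 3.49e-11). Neither gene overlapped between conditions, as for 79.2% of all tested genes. E2f1 (0.00 ± 0.08) and Ctcf (0.10 ± 0.06) did not pass the test, like Stat6 above, and with total counts both were lower (-0.42 and -0.33).

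Proinflammatory cytokines were higher for 16 of 17 tested genes, 15 of them by at least 2-fold and 3 of the 20 were under the filter on low counts. Several members passed that filter only through the M1-like sums, and with at least 10 counts required in every sum 8 were higher and 1 lower. Il6 had 0.04002, 0 and 0 CPM in M0 and 33.6, 32.2 and 26.9 CPM in M1-like sums (log2 fold change 10.98, SE 0.37, edgeR adjusted p = 7.34e-11), Il12b, the shared subunit of IL-12 and IL-23, had 0.2201, 0.149 and 0.0184 CPM and 227, 181 and 119 CPM (log2 fold change 10.41, SE 0.36, edgeR adjusted p = 8.79e-11), and Il1b had 0.4202, 0.168 and 0.147 CPM and 158, 109 and 138 CPM (log2 fold change 9.11, SE 0.26, edgeR adjusted p = 1.83e-11). All 3 were close to undetected in M0 cells. Tnf was expressed before stimulation, at 11.5, 11.2 and 12.98 CPM, and reached 768, 988 and 1087 CPM (log2 fold change 6.32, SE 0.14, edgeR adjusted p = 2.92e-12). Il27 (7.001), Il1a (4.85), Il12a (8.84), Il33 (7.98) and Il15 (2.82) rose as well, whereas Il16, a chemoattractant of CD4+ cells, was the only lower member (9.14 to 0.667 CPM, -3.77). Ifng itself was listed at 0 in M0 and had 62 reads in all M1-like sums together. Ifnb1 and Csf2 had no read in M0 macrophages and were under the filter.

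Of 7 cytokine antagonists and anti-inflammatory cytokines, 4 were higher and 2 lower, beside 35.4% higher and 37.5% lower over all tested genes. Where every sum had to hold at least 10 counts, 3 were higher and 2 lower. Il1rn, the natural antagonist of the IL-1 receptor, had 35.4, 35.1 and 36.97 CPM in M0 and 2569.9, 1975 and 2389 CPM in M1-like sums (log2 fold change 6.01, SE 0.11, edgeR adjusted p = 6.31e-13). Il18bp, which neutralises IL-18, had 3.06, 3.15 and 3.53 CPM and 531, 530.2 and 597 CPM (log2 fold change 7.41, SE 0.14, edgeR adjusted p = 7.12e-13). M1-like sums of both genes lay above all M0 sums (79.2% of all tested genes had no overlap in either direction). Il10, the main anti-inflammatory cytokine, rose by 3.27 on the log2 scale but reached a mean of only 0.691 CPM. Tgfb2 (-0.88) and Tgfb3 (-0.80) fell, and Tgfb1 had -0.17 ± 0.09 (edgeR adjusted p = 0.0989).

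Of 16 TNF superfamily ligands and receptors, 10 were higher and 4 lower, beside 35.4% higher and 37.5% lower over all tested genes. Where every sum had to hold at least 10 counts, 7 were higher and 4 lower. Lta (0.0251 to 11.5 CPM, 8.69), Tnfsf15 (0.266 to 40.6 CPM, 7.24), the death ligand Tnfsf10 (TRAIL, 0.586 to 73.1 CPM, 6.97) and Tnfsf4 (0.0262 to 2.16 CPM, 6.28) rose most. The receptors of TNF rose less, Tnfrsf1a by 1.45 and Tnfrsf1b by 1.21. The death receptor Fas had 3.92, 4.08 and 3.897 CPM in M0 and 61.3, 76.99 and 77.2 CPM in M1-like sums (log2 fold change 4.18, SE 0.11, edgeR adjusted p = 8.94e-12). Lower members were Tnfsf13 (APRIL, -3.59), Tnfrsf21 (-1.95), Tnfsf12 (TWEAK, -1.84) and Tnfrsf26 (-0.49), and Tnfsf13b (0.17 ± 0.16) and Ltb (-0.38 ± 0.41) were not called.

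CXC chemokines were higher for 9 of 13 tested genes and CC chemokines for 10 of 15, against 35.4% of all tested genes. With at least 10 counts required in every sum, 5 CXC chemokines were higher and 0 lower, and 8 CC chemokines were higher and 2 lower. After the CXCR3 ligands, the neutrophil attractants Cxcl3 (5.96), Cxcl5 (5.46), Cxcl2 (5.06) and Cxcl1 (3.82) rose, but from a low base, Cxcl2 from 1.36, 1.75 and 1.54 CPM to 52.9, 49.3 and 54.1 CPM (log2 fold change 5.06, SE 0.17, edgeR adjusted p = 9.17e-11). Cxcl16 had 45.002, 39.7 and 39.4 CPM in M0 and 1144, 1147 and 1109 CPM in M1-like sums (log2 fold change 4.78, SE 0.11, edgeR adjusted p = 2.90e-12). In the CC family, Ccl5, which attracts T cells, had 3.52, 1.902 and 2.61 CPM and 4222, 4290.2 and 4469 CPM (log2 fold change 10.66, SE 0.25, edgeR adjusted p = 3.72e-12). The monocyte attractants Ccl2 (1.61 to 494 CPM, 8.26) and Ccl7 (0.247 to 188 CPM, 9.56) rose together. Cxcl14 (10.6 to 0.214 CPM, -5.64), Cxcl12 (-2.08), Cxcl13 (-1.01), Ccl6 (137 to 28.6 CPM, -2.26) and Ccl9 (61.3 to 14.04 CPM, -2.12) were lower. Ppbp, Cx3cl1, Ccl27a and Ccl17, all under 0.51 CPM on average, were not called.

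Of 16 chemokine receptors, 6 were higher and 7 lower, near the 35.4% and 37.5% over all genes. The numbers were 3 and 8 with total counts, and 5 and 2 with at least 10 counts in every sum. Ccr7, which guides cells to lymph nodes, had 4.12, 1.45 and 1.53 CPM in M0 and 36.6, 32.5 and 26.4 CPM in M1-like sums (log2 fold change 3.76, SE 0.50, edgeR adjusted p = 2.47e-05), and the atypical receptor Ccrl2 had 71.97, 69.1 and 65.8 CPM and 647, 584 and 556 CPM (log2 fold change 3.11, SE 0.08, edgeR adjusted p = 6.45e-12). Cxcr4, the receptor of CXCL12, fell from 152, 145 and 151 CPM to 32.9, 27.5 and 17.4 CPM (log2 fold change -2.53, SE 0.17, edgeR adjusted p = 4.35e-08). Ccr2 (6.09 to 1.93 CPM, -1.65) and Cx3cr1 (1.87 to 0.163 CPM, -3.51) fell, and so did Cxcr2 (-4.94), Cxcr1 (-3.91) and Cxcr3 (-3.39), which were at most 1.4 CPM on average. Ccr3, Ccr6 and Ccr9 did not pass the test, though Ccr9 (0.66 ± 0.28) did with the mouse as a replicate block (edgeR adjusted p = 0.0340, against 0.0501 without).

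Interferon-stimulated antiviral effectors rose without exception, 33 of 33 genes, 32 of them by at least 2-fold, with a median log2 fold change of 4.67. Where every sum had to hold at least 10 counts, 31 of these effectors were higher and 0 lower. The summed level of the 33 genes went from 1074 to 1112 CPM in M0 sums to 22409 to 26638 CPM in M1-like sums. Rsad2, which encodes the nucleotide-modifying enzyme viperin, had 17.2, 19.2 and 20.04 CPM in M0 and 3148, 2689 and 3686 CPM in M1-like sums (log2 fold change 7.397, SE 0.13, edgeR adjusted p = 4.96e-13), and the RNA-binding effector Ifit2 had 2.52, 2.98 and 3.16 CPM and 2039, 2094 and 2632 CPM (log2 fold change 9.61, SE 0.17, edgeR adjusted p = 4.87e-13). Mx1 had 2.96, 2.55 and 2.702 CPM and 799, 795 and 1012 CPM (log2 fold change 8.31, SE 0.14, edgeR adjusted p = 3.49e-13), and Isg15, a ubiquitin-like modifier, 3.56, 3.17 and 4.26 CPM and 651, 649 and 810.0 CPM (log2 fold change 7.58, SE 0.14, edgeR adjusted p = 5.06e-13). The sums did not overlap for any of these 4 genes, as for 79.2% of all tested genes. The oligoadenylate synthetases Oas1a (3.198), Oas2 (4.42) and Oas3 (4.56) rose as well. The sensors of viral RNA rose by 3.36 (Ddx58, RIG-I), 3.76 (Ifih1, MDA5) and 3.86 (Dhx58).

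Each of 8 guanylate-binding proteins and 10 immunity-related GTPases rose by at least 2-fold, with medians of 8.08 and 6.45. Where every sum had to hold at least 10 counts, 7 guanylate-binding proteins and 8 immunity-related GTPases were higher and 0 lower. Both families attack the vacuoles of intracellular pathogens. Gbp2 had 18.5, 16.6 and 16.5 CPM in M0 and 7278, 7068 and 7291 CPM in M1-like sums (log2 fold change 8.71, SE 0.17, edgeR adjusted p = 9.24e-13), and Gbp2b reached 3101, 2987 and 3028 CPM in M1-like sums (11.46). The summed level of the guanylate-binding proteins went from 37.8 to 40.9 CPM to 14384 to 15051 CPM. Among the GTPases, Irgm1 was expressed before stimulation (39.04, 39.1 and 38.7 CPM) and reached 1002, 1037 and 1061 CPM (log2 fold change 4.73, SE 0.09, edgeR adjusted p = 8.25e-13), while Tgtp1 and Tgtp2 rose by 10.87 and 10.996. Tgtp1 and Tgtp2 are near-identical copies, and the Gbp, Ifit and H2-Q clusters hold members of similar sequence, so the split of reads among such genes is uncertain.

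Antigen presentation was higher for both classes of MHC. Of 25 class I genes 23 were higher and none lower, and of 13 class II genes 11 were higher and none lower. Canx, Pdia3, Ctss and H2-Eb2 were not called, with log2 fold changes of 0.10 ± 0.09, 0.07 ± 0.10, -0.04 ± 0.06 and -0.22 ± 0.37, and with total counts Canx and Pdia3 were lower, at -0.33 and -0.36. The transactivator of class I genes, Nlrc5, had 25.4, 27.9 and 26.4 CPM in M0 and 719, 693 and 778 CPM in M1-like sums (log2 fold change 4.78, SE 0.08, edgeR adjusted p = 4.08e-13), and that of class II genes, Ciita, 4.94, 3.66 and 3.53 CPM and 291, 281 and 244 CPM (log2 fold change 6.07, SE 0.15, edgeR adjusted p = 3.92e-12). The peptide transporter Tap1 (42.1 to 1136 CPM, 4.75) and the immunoproteasome subunits Psmb9 (3.21), Psmb8 (3.08) and Psmb10 (2.51) rose together. B2m, the common light chain, was already at 2343, 2344 and 2451 CPM in M0 and reached 10341, 10121 and 10946 CPM (log2 fold change 2.14, SE 0.06, edgeR adjusted p = 8.93e-12). The invariant chain Cd74 had 273, 222 and 209 CPM and 4036, 4027 and 4152 CPM (log2 fold change 4.12, SE 0.10, edgeR adjusted p = 6.05e-12), and H2-Ab1 63.5, 49.7 and 46.1 CPM and 1548, 1487 and 1491 CPM (log2 fold change 4.83, SE 0.12, edgeR adjusted p = 4.69e-12). All M1-like sums of these genes lay above all M0 sums (79.2% of all tested genes had no overlap in either direction).

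Molecules that activate or inhibit T cells changed in both directions, 11 higher and 5 lower of 16. Over all tested genes, 35.4% were higher and 37.5% lower. Cd40 had 4.44, 4.01 and 4.63 CPM in M0 and 863, 866 and 831 CPM in M1-like sums (log2 fold change 7.61, SE 0.11, edgeR adjusted p = 1.49e-13), Cd86 had 11.3, 10.6 and 10.9 CPM and 502, 404 and 469 CPM (log2 fold change 5.39, SE 0.11, edgeR adjusted p = 8.98e-13), and Cd80 only 5.77 to 12.3 CPM (1.09). Cd274, which encodes the inhibitory ligand PD-L1, rose as well, with 163, 162 and 169 CPM and 5066, 4449 and 4719.6 CPM (log2 fold change 4.85, SE 0.08, edgeR adjusted p = 2.79e-13). The adhesion genes Vcam1 (9.04) and Icam1 (6.08) also rose. The inhibitory receptors and ligands Cd276 (-3.78), Havcr2 (TIM-3, -3.21), Vsir (VISTA, 679 to 75.8 CPM, -3.16), Cd200r1 (-2.27) and Sirpa (-1.04) fell.

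In the genes around nitric oxide, Slc7a2, which imports the substrate arginine, had 62.4, 54.3 and 61.5 CPM in M0 and 5740.4, 4649.8 and 4984 CPM in M1-like sums (log2 fold change 6.43, SE 0.13, edgeR adjusted p = 9.91e-13). Ass1 (5.28 to 88.9 CPM, 4.07), which returns citrulline to arginine, and Gch1 (25.6 to 219 CPM, 3.09), the first enzyme of the cofactor tetrahydrobiopterin, also rose. The later enzymes of the cofactor, Pts (-1.23) and its recycling enzyme Qdpr (-1.25), fell, as did Ddah2 (-0.72), and Spr (-0.23 ± 0.12), Asl (0.15 ± 0.08) and Slc7a1 (0.10 ± 0.06) were not called (Asl and Slc7a1 were lower with total counts, at -0.28 and -0.33). In all, 7 of 13 were higher and 3 lower (35.4% and 37.5% over all tested genes), or 6 and 6 with total counts. Arg1, whose enzyme competes for arginine, was higher in M1-like than in M0 macrophages, with 6.48, 3.45 and 6.62 CPM in M0 and 276, 87.6 and 103 CPM in M1-like sums (log2 fold change 4.82, SE 0.43, edgeR adjusted p = 7.19e-07). The M1-like sum of mouse 1 was the highest, and the other 2 lay close to each other.

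Acod1, which makes itaconate from an intermediate of the citrate cycle, had 6.08, 4.87 and 5.92 CPM in M0 and 5879, 5701 and 5699 CPM in M1-like sums (log2 fold change 10.0003, SE 0.18, edgeR adjusted p = 4.96e-13). The enzymes of the citrate cycle and of pyruvate dehydrogenase around it did not share a direction. The list had 11 higher and 11 lower of 28, near the 35.4% higher and 37.5% lower over all genes. With total counts, 5 were higher and 21 lower. The isocitrate dehydrogenases that use NADP fell, Idh1 from 281, 273 and 275 CPM to 27.6, 27.3 and 31.4 CPM (log2 fold change -3.26, SE 0.08, edgeR adjusted p = 3.72e-12) and Idh2 from 52.5, 51.6 and 50.4 CPM to 8.05, 10.3 and 10.9 CPM (log2 fold change -2.395, SE 0.12, edgeR adjusted p = 2.95e-09), as did Suclg2 (-1.99) and Pdk2 (-1.69). Pdk1 (20.3 to 134 CPM, 2.73) and Pdk3 (1.68), kinases that inhibit pyruvate dehydrogenase, rose. Of the 13 proteins encoded by the mitochondrial genome, 12 were lower and mt-Co1 was not called (-0.02 ± 0.07), with a median of -0.43 and the largest decrease at -0.85 (mt-Nd3).

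Of 25 genes of glucose uptake and glycolysis 20 were higher, 18 of them by at least 2-fold, and 4 lower (median 2.34). The lactate exporter Slc16a3 had 30.2, 29.7 and 29.3 CPM in M0 and 1039, 896 and 831 CPM in M1-like sums (log2 fold change 4.96, SE 0.14, edgeR adjusted p = 1.94e-11), and the glucose transporters Slc2a6 (20.6 to 467 CPM, 4.504) and Slc2a1 (88.9 to 937 CPM, 3.397) rose, while Slc2a3 was not called (-0.17 ± 0.27). Hk2 (3.504) was the hexokinase gene with the largest increase. The steps from triose phosphate onward rose by similar amounts, Tpi1 by 3.32, Pgk1 by 3.44, Eno1 by 3.27 and Ldha by 3.098. The lower genes encode other isoforms, Ldhb (14.01 to 0.7699 CPM, -4.17), Pfkm (-0.89), Eno2 (-0.50) and Eno3 (-0.35).

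Hif1a had 88.2, 91.2 and 92.97 CPM in M0 and 863, 728 and 617 CPM in M1-like sums (log2 fold change 3.02, SE 0.13, edgeR adjusted p = 1.03e-09), and 14 of 20 tested genes of the hypoxia-inducible factor list were higher and 3 lower. The peptide hormone gene Adm (0.121 to 17.8 CPM, 7.17), the oxygen sensor Egln3 (3.53 to 180.2 CPM, 5.67), Bnip3 (8.02 to 325 CPM, 5.34) and P4ha2 (2.21 to 82.1 CPM, 5.21) rose most. The angiogenic factor Vegfa had 46.9, 44.6 and 39.7 CPM and 465, 366 and 285 CPM (log2 fold change 3.09, SE 0.16, edgeR adjusted p = 4.05e-09). Epas1, Vegfb (-1.14) and Car9 (-1.09) were lower, and Bnip3l (0.18 ± 0.12), Arnt (0.07 ± 0.05) and Egln2 (0.05 ± 0.13) did not pass the test, the latter 2 being lower with total counts (-0.36 and -0.37).

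**Figure D5:**
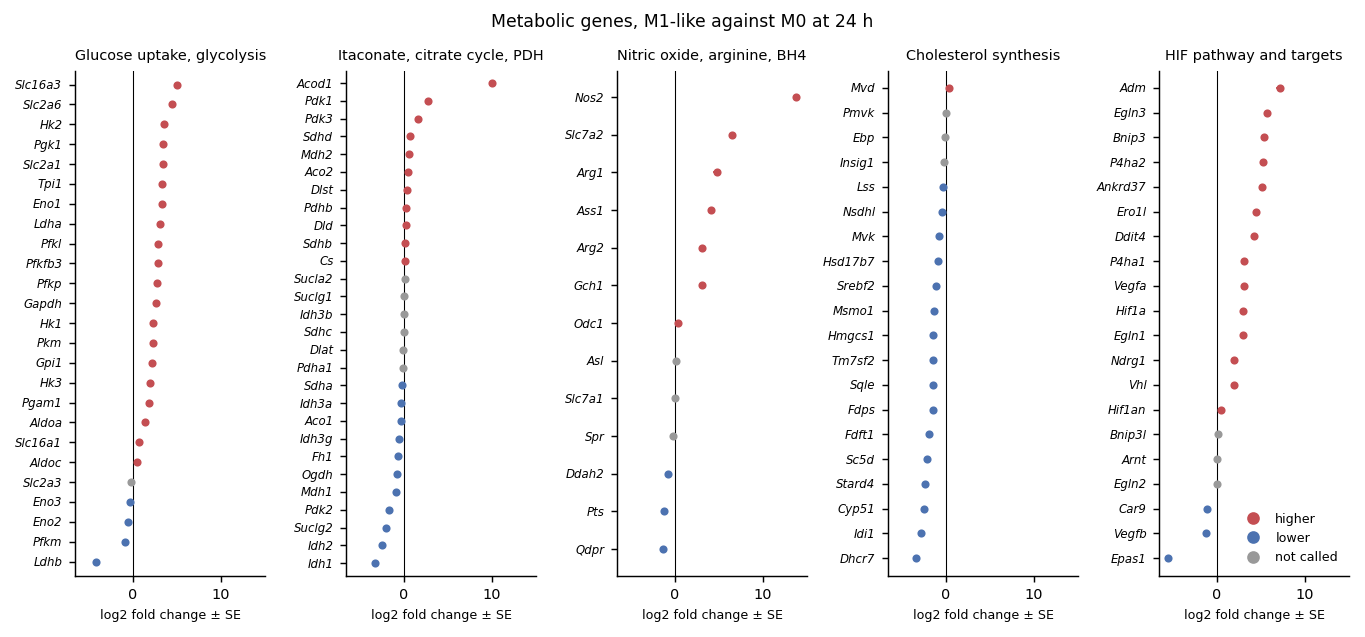
Log2 fold change of M1-like against M0 macrophages with its standard error (horizontal axis) for tested genes of 5 metabolic lists, coloured red where called higher, blue where called lower and grey where not called. Glycolysis and the hypoxia-inducible factor list lay mostly to the right of 0 and cholesterol synthesis mostly to the left, and citrate cycle enzymes other than Acod1 lay on both sides.

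Cholesterol synthesis was mostly lower, 18 of 23 tested genes, 13 of them by at least 2-fold (median -1.33). Dhcr7, an enzyme of the last steps of the pathway, fell from 42.02, 37.3 and 38.3 CPM to 3.94, 3.78 and 4.02 CPM (log2 fold change -3.32, SE 0.09, edgeR adjusted p = 1.23e-11), and Idi1 (-2.72) and Cyp51 (-2.403) fell as well. The regulator Srebf2 fell (-1.09). Mvd rose by 0.39 (-0.04 with total counts), and Pmvk, Ebp and Insig1 were not called, at 0.06 ± 0.11 (-0.36 with total counts), -0.10 ± 0.05 and -0.12 ± 0.10.

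Among lipid genes outside this pathway, the cholesterol exporter Abca1 had 68.2, 71.6 and 64.6 CPM in M0 and 678, 453 and 416 CPM in M1-like sums (log2 fold change 2.92, SE 0.18, edgeR adjusted p = 1.74e-08), and Ch25h, which makes 25-hydroxycholesterol, had 0.2401, 0.131 and 0.0919 CPM and 54.1, 44.6 and 70.5 CPM (log2 fold change 8.51, SE 0.27, edgeR adjusted p = 4.58e-11). Scarb1 (-1.997) and Apoc2 (-2.36) fell, as did Apoe (6879 to 4438 CPM, -0.63). In fatty acid synthesis and desaturation, 5 genes were higher and 7 lower of 14 (4 and 9 with total counts), beside 35.4% and 37.5% over all genes. Acsl1, which activates fatty acids, had 52.9, 51.1 and 50.3 CPM in M0 and 1665, 1688 and 2179 CPM in M1-like sums (log2 fold change 5.16, SE 0.12, edgeR adjusted p = 2.92e-12). The desaturase Fads1 (53.1 to 5.24 CPM, -3.34), the elongases Elovl6 (-3.15) and Elovl5 (-1.76) and the synthase Fasn (-2.19) fell.

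Of 14 enzymes of prostanoid and leukotriene synthesis, 5 were higher and 9 lower, or 3 and 9 with total counts. Over all tested genes, 35.4% were higher and 37.5% lower. Ptgs2, the inducible cyclooxygenase, had 0.8004, 1.06 and 1.14 CPM in M0 and 4894, 4420.5 and 3895 CPM in M1-like sums (log2 fold change 12.09, SE 0.27, edgeR adjusted p = 2.74e-12), and the prostaglandin E synthase Ptges had 5.64, 4.48 and 5.51 CPM and 518, 409 and 683 CPM (log2 fold change 6.69, SE 0.19, edgeR adjusted p = 1.89e-11). The phospholipase Pla2g4a, which releases arachidonic acid, rose by 2.82. The constitutive cyclooxygenase Ptgs1 (12.7 to 1.32 CPM, -3.28), the prostaglandin D synthase Hpgds (161 to 13.8 CPM, -3.54), the prostacyclin synthase Ptgis (-3.35) and, on the leukotriene side, Alox5 (-4.69), Alox5ap (181 to 28.01 CPM, -2.695) and Ltc4s (-2.32) were lower.

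In tryptophan metabolism, Ido1, Ido2 and Kynu rose by 5.46, 5.32 and 4.85, yet Ido1 reached only 2.08, 2.48 and 4.04 CPM. Of that list, 6 were higher and 2 lower of 9. For comparison with each list of this paragraph, 35.4% of all tested genes were higher and 37.5% lower. Among antioxidant and oxidase genes 17 were higher and 4 lower of 21, against 11 and 6 with total counts. The mitochondrial superoxide dismutase Sod2 had 63.3, 60.4 and 63.3 CPM in M0 and 1518, 1541 and 1695 CPM in M1-like sums (log2 fold change 4.67, SE 0.07, edgeR adjusted p = 2.09e-13), the heme oxygenase Hmox1 had 479, 441 and 514 CPM and 5132, 5302 and 6390.0 CPM (log2 fold change 3.55, SE 0.13, edgeR adjusted p = 1.48e-10), and Cybb, the catalytic subunit of the phagocyte oxidase, had 1239, 1200.1 and 1198 CPM and 5798, 5579 and 5562 CPM (log2 fold change 2.22, SE 0.11, edgeR adjusted p = 2.96e-09). Gpx1 (399 to 97.1 CPM, -2.04), Cat (-0.83) and Nfe2l2 (-0.50) were lower. In iron handling, with 7 higher and 5 lower of 12 (4 and 5 with total counts), the siderophore-binding protein Lcn2 had 0.1201, 0.261 and 0.165 CPM in M0 and 135, 139 and 182 CPM in M1-like sums (log2 fold change 9.67, SE 0.20, edgeR adjusted p = 1.67e-12). The ferrireductase Steap3 (-3.62), the transferrin receptor Tfrc (-0.83) and the ferritin light chain Ftl1 (3895 to 2201 CPM, -0.82) fell, in contrast to the heavy chain Fth1.

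Inflammasome and cell death genes were higher for 15 and lower for 6 of 23, beside 35.4% and 37.5% over all tested genes. The sensor Nlrp3 had 10.6, 9.996 and 8.46 CPM in M0 and 270.5, 240.0 and 230.0 CPM in M1-like sums (log2 fold change 4.67, SE 0.10, edgeR adjusted p = 1.64e-12), Casp4 (caspase-11), which binds cytosolic LPS, had 12.1, 13.6 and 14.6 CPM and 289, 301 and 306 CPM (log2 fold change 4.47, SE 0.11, edgeR adjusted p = 5.14e-12), and Mlkl, the effector of necroptosis, 12.9, 15.1 and 15.6 CPM and 333, 327 and 344 CPM (log2 fold change 4.52, SE 0.08, edgeR adjusted p = 5.46e-13). The adaptor Pycard (-0.09 ± 0.07) was not called, and another sensor, Nlrp1b (12.1 to 0.752 CPM, -4.02), and the gasdermin Gsdme (-2.69) fell, while Gsdmd rose (1.67). In the complement list 10 were higher and 9 lower of 21, beside 35.4% higher and 37.5% lower over all genes. With total counts, 8 of this list were higher and 11 lower. The soluble components C3 (18.3, 17.2 and 17.7 CPM in M0 and 6857, 7293 and 8189 CPM in M1-like sums, log2 fold change 8.71, SE 0.11, edgeR adjusted p = 1.12e-13), Cfb (0.252 to 204 CPM, 9.64), C1s1 (7.204) and the inhibitor Serping1 (6.34) rose. The receptors fell, C3ar1 (777 to 190.3 CPM, -2.03), C5ar1 (-1.36), C5ar2 (-4.36) and the integrin chains Itgam (875 to 221 CPM, -1.99) and Itgax (731 to 98.5 CPM, -2.89), while the common partner of these chains, Itgb2, rose (0.49).

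Scavenger and efferocytosis receptors were mostly lower, 17 of 25, 13 by at least 2-fold (median -1.47). For comparison with both lists of this paragraph, 35.4% of all tested genes were higher and 37.5% lower. Cd36, which binds oxidised lipoproteins, had 3257, 2980.5 and 3199.5 CPM in M0 and 119, 103 and 104 CPM in M1-like sums (log2 fold change -4.85, SE 0.13, edgeR adjusted p = 9.17e-12). Mrc1, the mannose receptor, had 105, 101 and 106 CPM and 2.46, 1.99 and 1.52 CPM (log2 fold change -5.73, SE 0.13, edgeR adjusted p = 2.92e-12), and Clec7a, the β-glucan receptor Dectin-1, 598, 566 and 542 CPM and 25.5, 22.6 and 17.6 CPM (log2 fold change -4.7002, SE 0.16, edgeR adjusted p = 6.56e-11). The bridging molecules Gas6 (-4.31) and Mfge8 (1571 to 316 CPM, -2.32) fell, whereas the receptors of Gas6, Axl (21.9 to 479 CPM, 4.45) and Mertk (90.8 to 614 CPM, 2.76), rose. Timd4 (3.604) and Marco (69.2 to 277 CPM, 2.003) were higher too. Of the Fc receptor list, 8 of 11 were higher, led by Fcgr4 (13.5 to 179 CPM, 3.72), and the inhibitory Fcgr2b was lower (-0.56).

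Of 14 core macrophage genes, 4 were higher (Mertk, Fcgr1 at 2.098, Adgre1 at 1.79 and Cd14) and 7 lower (among them Tyrobp at -2.21, Itgam, C5ar1, Lyz2 at -0.99, Cd68 at -0.80 and Lgals3 at -0.31), a share of called genes near the 72.9% over all genes. With total counts 4 were higher and 10 lower. Csf1r (-0.03 ± 0.07), Spi1 (-0.09 ± 0.11) and Maf (-0.25 ± 0.11) did not pass the test. Adgre1, which encodes F4/80, had 442, 398 and 426 CPM in M0 and 1374, 1449 and 1553 CPM in M1-like sums (log2 fold change 1.79, SE 0.08, edgeR adjusted p = 1.14e-09). Of genes typical of peritoneal macrophages, 9 were higher and 10 lower of 24, again near the shares over all genes. The acute-phase gene Saa3 (223 to 3208 CPM, 3.85) and the coagulation factor F10 (132 to 1879 CPM, 3.83) rose most, and fibronectin Fn1 (1279.9 to 110.3 CPM, -3.54) and Gata6 (3.44 to 0.3201 CPM, -3.41), the factor of resident large peritoneal macrophages, fell most. Cd5l had 0.20 ± 0.32, with an edgeR adjusted p of 0.578 and of 0.0213 with the mouse as a replicate block.

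Of 23 markers of alternative activation, 9 were lower, 8 higher and 6 not called, close to the 37.5% lower and 35.4% higher over all genes, or 11 lower and 7 higher with total counts. Mrc1 and Pparg fell as given above, and Fabp4 fell from 369, 354 and 373 CPM to 21.1, 23.1 and 16.7 CPM (log2 fold change -4.17, SE 0.11, edgeR adjusted p = 8.90e-12). Arg1, Pdcd1lg2 (0.439 to 12.9 CPM, 4.87), the transglutaminase Tgm2 (68.7 to 1077 CPM, 3.97), Ccl22 (3.47) and the IL-4 receptor chain Il4ra (41.2 to 255 CPM, 2.63) rose. Chil3 (12.2, 11.5 and 17.8 CPM in M0 and 13.6, 15.2 and 22.6 CPM in M1-like sums) and Retnla (25.7, 22.5 and 21.98 CPM and 18.5, 20.6 and 21.4 CPM) were not called. Within each mouse, Chil3 was higher and Retnla lower in the M1-like sum, and with the mouse as a replicate block the edgeR adjusted p was 0.0508 and 0.123.

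Of 24 cathepsins and lysosomal genes 8 were higher and 13 lower (4 and 17 with total counts). Of 17 V-ATPase subunits 7 were higher and 8 lower (1 and 11 with total counts). Over all tested genes, for comparison with each list here, 35.4% were higher and 37.5% lower. The acid lipase Lipa had 2849.5, 2887 and 2914 CPM in M0 and 421, 529 and 474 CPM in M1-like sums (log2 fold change -2.603, SE 0.08, edgeR adjusted p = 5.16e-11), and Ctsl fell by 2.02 on the log2 scale, while Ctsc (2.13), Ctsh (1.78) and Ctsz (1.21) rose. In the proton pump, the membrane subunit Atp6v0a1 fell from 616, 618 and 571 CPM to 73.8, 68.1 and 66.8 CPM (log2 fold change -3.11, SE 0.07, edgeR adjusted p = 3.05e-12), followed by Atp6v0d2 (-1.92), and the isoform Atp6v0a2 rose (0.67). Among matrix proteases, the macrophage elastase Mmp12 had 4441, 3798 and 3967 CPM in M0 and 68.5, 45.9 and 45.1 CPM in M1-like sums (log2 fold change -6.26, SE 0.18, edgeR adjusted p = 2.23e-11), whereas Mmp14 (55.3 to 434 CPM, 2.97) and the inhibitor Timp1 (1.91 to 78.5 CPM, 5.36) rose. In that list 4 were higher and 7 lower of 14 (3 and 9 with total counts). Of the integrins, Itgb5 (317 to 16.4 CPM, -4.27) and Itga6 (-3.49) fell most, and Itga5 (203 to 508 CPM, 1.32) and Itgal (1.11) rose. Of 16 integrins, 7 were higher and 7 lower (4 and 7 with total counts).

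Genes of DNA replication and mitosis were expressed at low levels and were lower for 22 and higher for 8 of 40 (median -0.44). Over all tested genes, 37.5% were lower and 35.4% higher. E2f2 (6.02 to 0.472 CPM, -3.66), Top2a (4.14 to 0.721 CPM, -2.52) and Kif11 (-1.98) fell most, and the helicase subunits Mcm2 (-1.69), Mcm6 (-1.21) and Mcm3 (-1.17) fell too. Ccne1, which encodes cyclin E1, went against the list, from 1.82, 1.68 and 1.89 CPM in M0 to 28.6, 33.4 and 43.3 CPM in M1-like sums (log2 fold change 4.29, SE 0.16, edgeR adjusted p = 2.09e-10), and Mki67 (5.37 to 11.8 CPM, 1.13) rose as well.

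Some transcripts of other cell types moved with the stimulus at low levels. Of 10 tested mesothelial and fibroblast markers, 8 were lower and 2 higher. Of 3 tested T cell markers, 2 were higher and 1 lower. Over all tested genes, 35.4% were higher and 37.5% lower. Collagen genes of fibroblasts were lower in M1-like sums, Col1a2 from 11.3, 13.2 and 7.46 CPM to 1.97, 2.58 and 2.87 CPM (log2 fold change -2.097, SE 0.21, edgeR adjusted p = 1.91e-06), Col1a1 by -1.54 and Col3a1 by -2.85, and the summed level of the mesothelial and fibroblast list went from 22.5 to 36.999 CPM to 10.2 to 13.6 CPM. The eosinophil list went from 17.9 to 19.99 CPM to 1.02 to 1.81 CPM, most of it in M0 being Siglecf, while Prg2 and Prg3 were at 0. The neutrophil list went from 29.7 to 36.4 CPM to 10.2 to 15.2 CPM, and in M0 most of it was Mmp8. The T cell list went from 1.86 to 2.095 CPM in M0 to 5.76 to 6.51 CPM in M1-like sums and the NK cell list from 0.541 to 0.7604 to 0.2702 to 0.499 CPM, both with no overlap. B cell markers were at 16.2 to 28.4 CPM in M0 and 24.5 to 27.1 CPM in M1-like sums and mast cell markers at 3.53 to 5.88 and 4.73 to 5.701 CPM. The part of these cells in the results above was not tested.

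Among called genes with a mean log2 CPM of at least 2, the per-mouse log2 ratios of M1-like over M0 spread widely for Fut7, Dnase1l3, Slc9a3r2 and Siglecf. Fut7, a fucosyltransferase, had 9.44, 10.2 and 9.39 CPM in the M0 sums and 0, 0.102 and 0.146 CPM in the M1-like sums, and the nuclease Dnase1l3 had 0.1601, 0.0373 and 0.147 CPM and 24.05, 30.2 and 23.3 CPM. Siglecf had 16.8, 16.8 and 15.4 CPM and 0.703, 0.792 and 0.208 CPM, the M1-like value of mouse 3 being the lowest. In each of these 3 genes the conditions did not overlap, as for 79.2% of all tested genes.

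In another experiment of the series, called the later experiment here, untransfected M1-like and M0 macrophages were sequenced at another site. There were 3 libraries each, with paired-end reads of 150 nucleotides and 13421854 to 15851418 counted reads. Their labels give neither dose nor hours of stimulus, so "later" names the experiment and not a time point. Of 14172 genes tested there, 4105 (29.0%) were higher and 4074 (28.7%) lower in M1-like cells, 57.7% in all. Of the 2389 genes with at least a 2-fold increase at 24 h, 1853 were tested there, and 1256 (67.8%) of these were higher and 128 lower. Of the 2539 with at least a 2-fold decrease, 2304 were tested there, and 1444 (62.7%) were lower and 151 higher. The median log2 fold change was 2.26 for the 2389 genes in the 24 h experiment and 0.76 for the 1853 genes in the later experiment. For the 2539 and the 2304 genes it was -1.78 and -0.72. All were chosen on their 24 h values. Conversely, 63.0% of the genes higher in the later experiment were called higher at 24 h, and 65.7% of the genes lower there were called lower.

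Of the 20 largest changes at 24 h, 18 were tested in the later experiment and 17 of them were called in the same direction. Nos2 had 0.146, 0.06204 and 0.0682 CPM in the later M0 and 824, 654 and 639.9 CPM in the later M1-like libraries (log2 fold change 12.82), and Cxcl9 had 0, 0.06204 and 0 and 77.04, 49.5 and 65.5 CPM (11.05). Cxcl10, by contrast, had 0.2196, 0.186 and 0.136 CPM in the later M0 and 1.47, 8.099 and 6.62 CPM in the later M1-like libraries (4.84). Tnf had 7.54, 9.43 and 6.27 CPM and 26.98, 37.8 and 34.7 CPM (2.09). The exception among the 18 was Slc27a6, a fatty acid transporter, with 13.4, 13.3 and 13.7 CPM and 8.42, 15.7 and 12.1 CPM (-0.16). Tested directly, the difference between the experiments passed an adjusted p of 0.05 for 7564 of 16230 genes (46.6%). Sequencing site, read length and depth differ together between the experiments, time in culture may differ as well, and these cannot be told apart. The labels of the later libraries give neither hours nor mouse.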

How the data were processed

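The deposited files held whole-number read counts per gene, one file per library. Per the labels and the study's methods, the authors trimmed reads with Trimmomatic, aligned them to mm10 with TopHat2 and made the counts with featureCounts. Versions, strand setting and the treatment of reads that map to several genes are not given in the sources used here, so genes with near-identical copies or antisense partners are uncertain. Gene symbols came from GENCODE M21, and 37607 of 39179 genes had one.

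The 2 technical libraries of a mouse and condition (22719705 to 29880494 counts each) were summed, since they differed by a chi-square per degree of freedom of 1.07 to 1.10, against 3.64 to 17.5 between mice. The 9 sums of M0, M1-like and M2-like cells were fitted in 1 model with edgeR 4.0.16 in R 4.3.3 (TMM scaling, filterByExpr with a minimum count of 10 and a total of 15, quasi-likelihood test, Benjamini-Hochberg adjustment, threshold 0.05). The main model had no block for the mouse. Same-numbered sums came from the same mouse, and their deviations from the group means correlated at 0.105 to 0.468, against -0.501 to 0.176 for different mice. The SD and n given with a value are over 3 mice. The p-values rest on the spread between sums within the conditions, M2-like included, and borrow from other genes. They do not use the pairing by mouse, so they do not measure how much the response varied between mice. On counts simulated from these sums for 13183 genes, the test recovered 99 of 100 genes changed by 1 and 100 of 100 changed by 2 on the log2 scale, and called 14 unchanged genes. Few genes were changed in this simulation, as many up as down, whereas 72.9% of genes were called in the data. It therefore could not test how scaling affects the calls.

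The genes named were those of fixed lists, the 10 largest changes per direction that averaged 2 or more in log2 CPM and did not overlap, the 5 widest spreads between mice, the 5 highest genes per group and genes off in one condition and on in the other. In each list, mainly its 4 largest changes in each direction and its genes of known role were given, and further members were chosen after their values were seen. Some genes are not reported here, in the text or as points in the plots by list, but are counted in the numbers for their lists. The comparison, lists and tests were chosen with earlier results of these data known. Alternatives were DESeq2 1.42.0, other scalings, filters, sample sets and thresholds, the mouse as a block, unsummed libraries and leaving out each sum.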

Additional observations from a re-analysis of the deposited data

Results flagged for a closer look

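Of the 20 largest changes at 24 h, 11 differed between the 24 h comparison and the later one when the difference of the log2 fold changes (24 h minus later) was tested with edgeR, beside 46.6% of all tested genes. The 20 were chosen for the size of their change at 24 h, which favours larger values there. Among these, 4 increases were larger at 24 h. The difference was 8.05 for Cxcl10, 6.87 for Ccl12, 3.13 for Iigp1 and 2.40 for Gbp4. The other 7 were decreases that were larger at 24 h, with -8.77 for Slc27a6, -7.92 for Rgs18, -6.05 for Hgf, -4.39 for Mamdc2, -4.07 for Abca9, -3.30 for Cmbl and -2.77 for Zfyve28. Hgf, for example, had 23.8, 26.1 and 29.1 CPM in the later M0 and 10.4, 11.6 and 11.7 CPM in the later M1-like libraries, and Rgs18 had 21.3, 22.6 and 23.3 CPM and 5.25, 5.29 and 5.11 CPM. The fitted differences of genes with no or few reads in a group, such as Ccl12 and Rgs18, depend on the prior count. The experiments differ in sequencing site, read length and depth and may differ in time in culture, which cannot be told apart. The later labels give neither hours nor mouse.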

How the results depend on the processing

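With TMM scaling, 5703 genes were higher and 6048 lower in M1-like macrophages. With total counts the numbers were 3226 and 9543, and with a log2 fold change of at least 1 as well they were 2389 and 2539, a stricter threshold by construction. The other alternatives stayed within 1.5 times. They gave 6017 and 5748 with DESeq2, 5917 and 5803 with RLE size factors, 5040 and 5360 with at least 10 counts in every sum, 6104 and 6188 without a filter, 5909 and 6252 with only M0 and M1-like sums, and 5859 and 6282 without summing technical libraries. Leaving out 1 sum gave 5416 to 5597 higher and 5554 to 5757 lower genes. With the mouse as a replicate block there were 5678 higher and 6045 lower genes, and among the named genes the block changed the calls of Ccr9, Socs2 and Cd5l and no other. In the later comparison, leaving out 1 library gave 3636 to 3869 higher and 3736 to 3920 lower genes.

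Of 378 named genes tested, 16 changed sign with total counts and were called with TMM, with total counts or with both. In the other fits, 0 genes changed sign with a call in that fit or the main one. With the sign kept, 12 genes lost their call and 26 others gained one in at least 1 fit at the same threshold. Of the 16 that changed sign, those called with TMM were Ifngr2 (-0.26), Socs4 (-0.13), Chuk (-0.023) and Mvd (-0.039). The others were Stat6 (-0.27), Tlr7 (-0.26), Ly96 (-0.34), Canx (-0.33), Pdia3 (-0.36), Asl (-0.28), Slc7a1 (-0.33), Pmvk (-0.36), E2f1 (-0.42), Ctcf (-0.33), Arnt (-0.36) and Egln2 (-0.37).

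Calls of 7 named genes were lost when 1 sum was left out. Tgfb3 lost its call without the M1-like sum of mouse 3 (-0.69), Ddah2 without the M0 sum of mouse 1 or the M1-like sum of mouse 2, and Cxcl13, Eno3, Ifngr2, Irf3 and Stat5b with each of 3 or more sums left out in turn, in which case the edgeR adjusted p reached 0.180, 0.117, 0.0821, 0.117 and 0.161. Depth limits genes near 0 in a condition, for which the size of a change is known only as a bound or a wide interval.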
